A study of Mus musculus with 4 samples.

Results

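The comparison described here is the response to tumour necrosis factor (TNF) in YAMC cells whose Sirt6 gene had been silenced by RNA interference. It sets the silenced library given TNF against the silenced library given medium alone, 2 of the 4 RNA sequencing libraries of the study. The other 2 form the same pair with a control siRNA. Genes were chosen by depth alone, as those with at least 50 reads on average in the 2 Sirt6 siRNA libraries, which gave 13519 of the 29179 genes in the table. A further 6829 genes had fewer reads and 8831 had none in either library.

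YAMC cells, named in the labels as Young Adult Mouse Colonocytes, are a conditionally immortalised mouse line. They are kept at 33 °C with 5 U/mL interferon-γ, under which an immortalising gene is expressed. All groups were of passages 10 to 12 and received 50 nM of siRNA. They were moved to 37 °C without interferon-γ and, 48 h after transfection, were given 100 ng/mL TNF or medium for 24 h. Each siRNA was thus studied once with TNF and once without. All 4 groups had been grown in interferon-γ before treatment, and none is an untransfected culture. Each group is 1 library, so no difference between TNF and medium has a replicate check.

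The 4 libraries held 18793708 to 23749380 gene-assigned reads. Levels are given as RPM, a gene's reads per megaread of its library, scaled by the trimmed mean of M values (normalised RPM), and each ratio is that of TNF to medium with a prior count of 2 reads. Intervals are 95% intervals of counting error alone, and the reads, which carry no molecular identifiers, need not be separate molecules. A gene is said to have risen or fallen when its ratio was at least 1.3-fold and its interval left out no change. The silenced gene itself (Sirt6, ENSMUSG00000034748), a nuclear NAD-dependent deacylase, stood at 7.11 normalised RPM in medium and 7.03 with TNF in the Sirt6 siRNA libraries, and at 17.1 and 18.8 with control siRNA. Both silenced libraries lay below both control libraries, and within the silenced pair the TNF ratio was log2 -0.02 (interval -0.34 to 0.31).

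The labelled cell type was only partly borne out by its markers. Of 19 colon epithelial markers 5 had at least 50 reads, and Vil1, Cdx1, Cdx2, Car1, Hnf4a, Cldn3, Cldn4 and Tff3 had no read in either Sirt6 siRNA library. All 6 mesothelial markers were read, at a summed 2731 to 3498 normalised RPM over the 4 libraries, as were 10 of 12 fibroblast and muscle markers. The summed mesothelial level was 3498 in medium and 2948 with TNF under Sirt6 siRNA, and the fibroblast and muscle level was 6680 and 5641. Single markers were uneven, and none of either list rose. Upk3b (1393 to 1059) and Lrrn4 (205 to 102) were the only mesothelial markers that passed as lower, and Msln was level (log2 -0.01). Most of the fibroblast and muscle loss came from Col1a1 (3431 to 2877) and Col3a1 (700 to 455). Acta2 (log2 -0.05) and Pdgfrb (log2 -0.03) hardly moved. The summed colon epithelial level was 1501 in medium and 1191 with TNF. Nearly all of it came from the keratin genes Krt8 (496 to 382), Krt18 (433 to 313) and Krt19 (552 to 477). Epcam had 0 reads in medium and 2 with TNF, so this sum rests on keratins and not on the list as a whole. Of 8 leukocyte markers 2 were read, Cd14 and Csf1r, and both rose, with a summed level of the list of 21.2 in medium and 36.7 with TNF. The part of a changed cell mixture in the results was not tested, and in such bulk samples fewer cells of a type and less RNA per cell cannot be told apart.

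TNF is a cytokine of macrophages and T cells that binds the receptors Tnfr1 and Tnfr2. The receptor complex recruits ubiquitin ligases and kinases that free the transcription factor NF-kB from its IkB inhibitors. NF-kB then drives genes of chemokines, cytokines, adhesion molecules and its own inhibitors, while a slower wave of interferon-stimulated genes follows through interferon regulatory factors and STAT proteins. Sirt6 removes acetyl groups from histone H3 and has been described as a corepressor at promoters bound by NF-kB, hypoxia-inducible and sterol regulatory factors.

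TNF with Sirt6 silenced was followed by broad rises of inflammatory and interferon-linked genes and by falls of sterol synthesis genes, and of part of the Hedgehog, Wnt, guidance and Hox lists. In all, 248 genes were at least 2-fold higher (1.83% of the 13519) and 104 at least 2-fold lower (0.769%). A further 815 genes were 1.3- to 2-fold higher (6.03%) and 1272 were 1.3- to 2-fold lower (9.41%). At the 1.3-fold threshold taken whole, 7.86% of genes rose and 10.2% fell, which is the background for the counts of gene groups given here. It is not matched for depth. Falls of 1.3- to 2-fold made up 16.7% of genes at 100 to 300 reads and 3.44% above 3000 reads. Thinly read lists, such as Hox genes (median 205.5 reads) and TNF superfamily genes (222.5), thus have a higher background of falls. The median log2 ratio of all genes was -0.01, with 5% of genes below -0.56 and 5% above 0.51. The direction of the moderate changes followed depth. Among the 5192 genes with at least 1000 reads, 310 rose and 221 fell by 1.3- to 2-fold, while among the 4031 genes with under 300 reads 236 rose and 615 fell. At 50 to 100 reads the median interval reached 1.42-fold either side of the ratio, against 1.04-fold above 3000 reads.

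**Figure D1:**
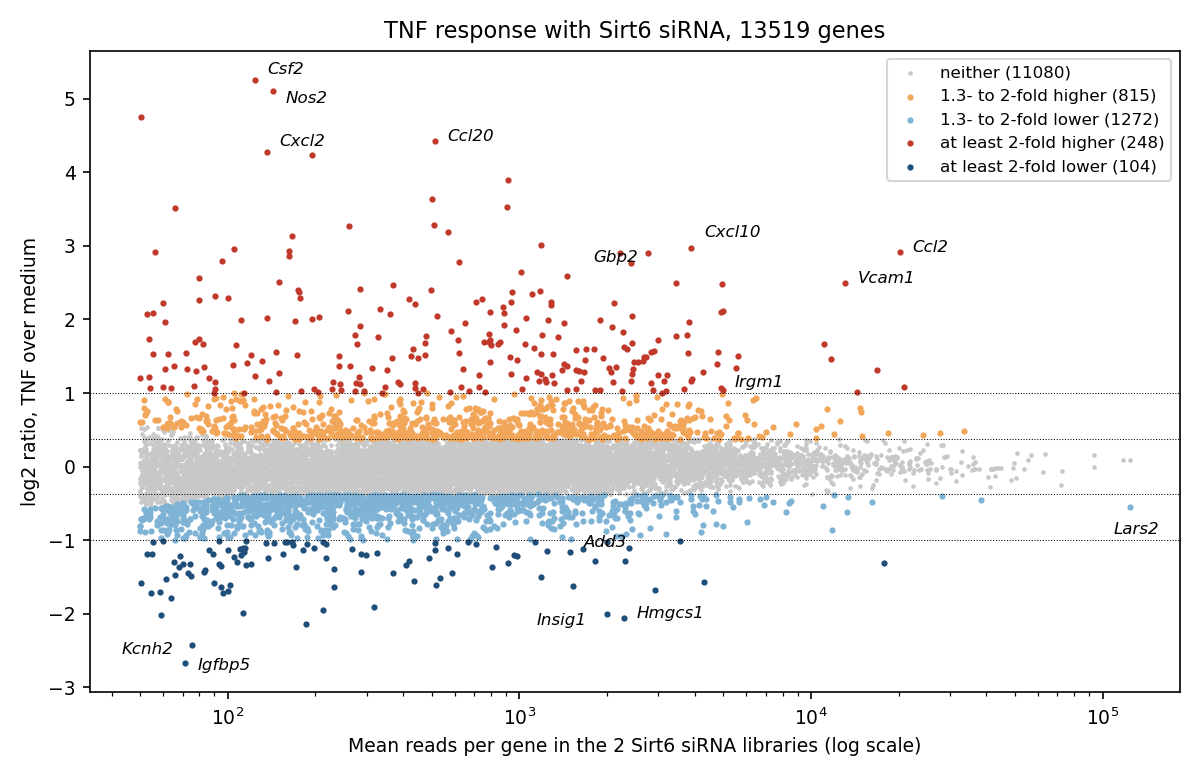
Each point is 1 of 13519 genes, with its mean reads in the 2 Sirt6 siRNA libraries on a log axis and its log2 ratio of TNF to medium on the vertical axis. Colours mark the 4 classes, dotted lines mark 1.3-fold and 2-fold either way, and the most deeply read gene past 2-fold on the higher side is Csf1, at log2 1.08.

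Genes that fell were also richer in G and C bases. The longest transcript had a median GC content of 54.9% in the class at least 2-fold lower and 53.1% in the class 1.3- to 2-fold lower. It was 47.8% in the class 1.3- to 2-fold higher, 47.1% in the class at least 2-fold higher and 49.7% over all genes. Across 13258 genes, which share their libraries and are not independent, the log2 ratio had a Spearman correlation of -0.255 with GC content under Sirt6 siRNA and -0.150 under control siRNA. With ratios centred on genes of like GC content, an alternative chosen after seeing the data, the 4 counts were 235 and 795 higher and 92 and 1104 lower. Whether GC content has a part in any single change was not tested.

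The firmest rises, those whose intervals lay farthest from no change, were led by a cytokine, an enzyme and a chemokine gene of inflammation. The cytokine gene Csf2 (ENSMUSG00000018916), which encodes GM-CSF, stood at 0.208 normalised RPM in medium and 11.4 with TNF under Sirt6 siRNA, against 0.486 and 19.3 under control siRNA. Both TNF libraries lay above both medium libraries, and the rise with Sirt6 silenced was 38.2-fold (log2 5.26, interval 4.53 to 7.41). Nos2, the inducible nitric oxide synthase, went from 0.291 to 13.1 with Sirt6 silenced (log2 5.11, interval 4.43 to 6.82) and from 0.883 to 16.2 with control siRNA. Ccl20, a chemokine for cells with the receptor Ccr6, went from 2.04 to 45.7 (log2 4.43, interval 4.07 to 4.93), against 4.02 to 52.1 with control siRNA.

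Other genes among the 12 firmest act in host defence or its control. Irg1 makes the antibacterial metabolite itaconate in macrophages and rose 9.61-fold, from 2.2 to 22 normalised RPM. Neurl3, a ubiquitin ligase gene, rose 9.76-fold, and Serpinb2, a plasminogen activator inhibitor, rose 18.8-fold. The level of Cxcl10, a T cell chemokine, was 40.5 in medium and 319 with TNF, the highest levels of the 12. Sprr2e, a cornified envelope gene, had 2 reads in medium and 99 with TNF, so that its ratio of 27-fold rested on few reads (interval log2 3.91 to 8.87). In these 12 genes both TNF libraries lay above both medium libraries.

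The firmest falls were of signalling, lipid and transport genes. Igfbp5, a secreted binder of insulin-like growth factors, stood at 5.28 normalised RPM in medium and 0.75 with TNF under Sirt6 siRNA, and at 4.86 and 0.427 under control siRNA. Both TNF libraries lay below both medium libraries, and the fall was 6.38-fold (log2 -2.67, interval -3.67 to -2.06). Kcnh2, a potassium channel gene, went from 5.45 to 0.937 with Sirt6 silenced and from 3.62 to 1.55 with control siRNA. Cyp2s1, a cytochrome P450 gene, fell 3.76-fold, from 21.4 to 5.62, and Esyt3, which tethers the endoplasmic reticulum to the plasma membrane, fell 3.86-fold, from 14.4 to 3.65. Others, described with their groups, were Hmgcs1, Insig1, Sqle, Dhrs3, Sema4g, Cdon and Sv2c.

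**Figure D2:**
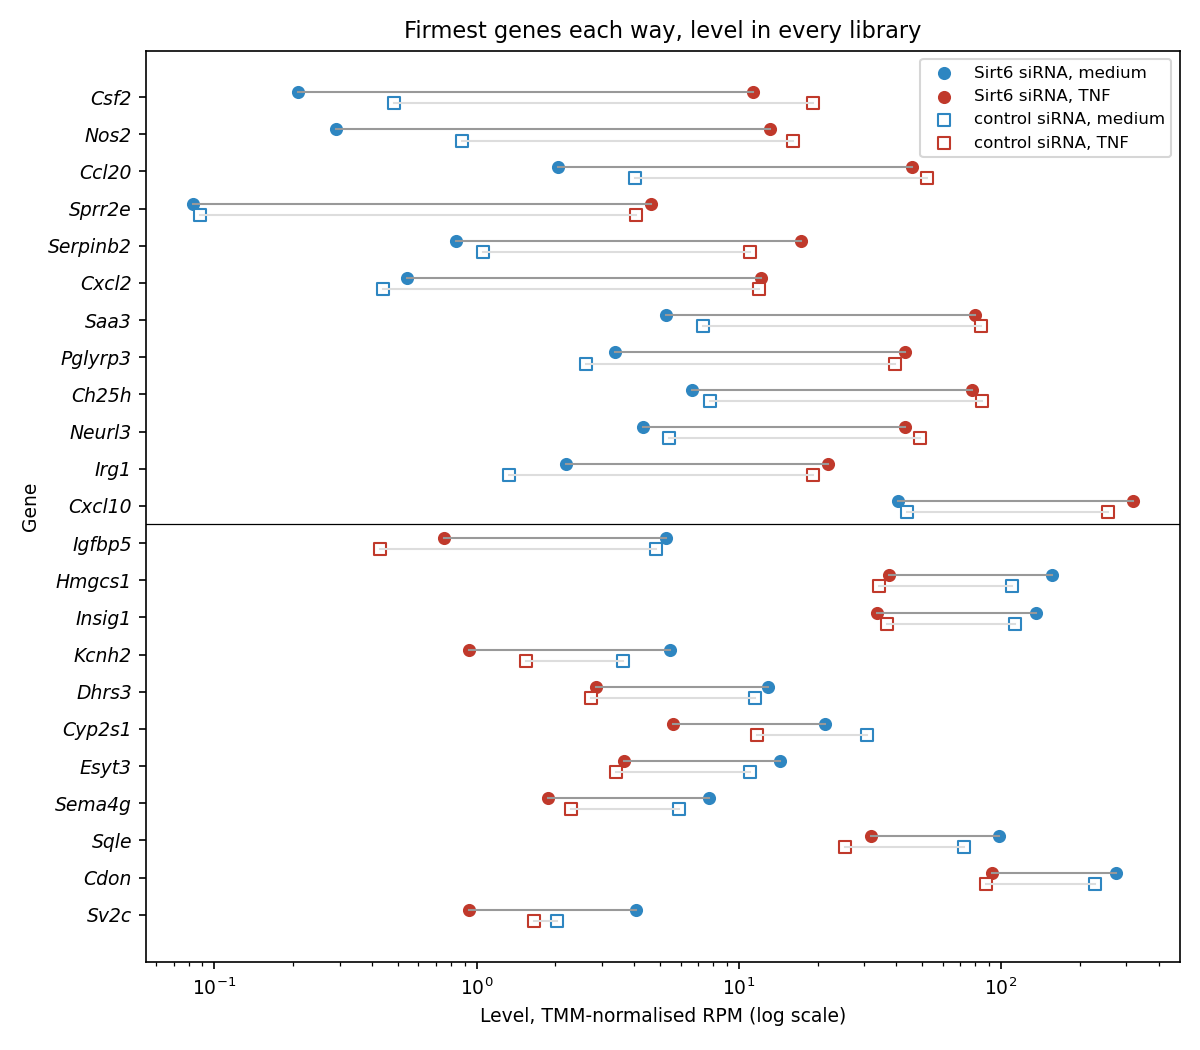
Levels in normalised RPM on a log axis of the 12 genes that rose and 11 of the 12 that fell most firmly with Sirt6 siRNA, 1 symbol per library. Filled circles are Sirt6 siRNA and open squares control siRNA, blue is medium and red TNF. In each gene shown the 2 red symbols lie on the same side of the 2 blue ones.

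Promoters were looked at for motifs that these pathways are known to use, in RefSeq windows of GRCm38.p6 from 250 bases before to 50 after the start. The motifs, on either strand, were GGNNTTTCC for NF-kB, GAAANNGAA for the interferon-stimulated response element, TTCNNNGAA for STAT, TCACNCCAC for the sterol regulatory element, TGACTCA for AP-1 and the CCAAT box. The interferon and STAT motifs can overlap each other. Of 28 genes considered, the 24 firmest and those of the cholesterol list named below, 23 had a window, and 5 are shown as examples, chosen because they carry a motif of the pathway in question. Capitals mark matches to the NF-kB, interferon, sterol and AP-1 motifs.
Csf2, chr11:54249850-54250149, minus strand: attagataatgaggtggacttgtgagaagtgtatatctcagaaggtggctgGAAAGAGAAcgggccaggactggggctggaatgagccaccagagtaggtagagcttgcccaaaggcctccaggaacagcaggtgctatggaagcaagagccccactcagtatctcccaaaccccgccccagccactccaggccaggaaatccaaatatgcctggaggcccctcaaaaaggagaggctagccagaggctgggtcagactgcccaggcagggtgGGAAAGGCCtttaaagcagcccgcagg
Cxcl2, chr5:90903649-90903948, plus strand: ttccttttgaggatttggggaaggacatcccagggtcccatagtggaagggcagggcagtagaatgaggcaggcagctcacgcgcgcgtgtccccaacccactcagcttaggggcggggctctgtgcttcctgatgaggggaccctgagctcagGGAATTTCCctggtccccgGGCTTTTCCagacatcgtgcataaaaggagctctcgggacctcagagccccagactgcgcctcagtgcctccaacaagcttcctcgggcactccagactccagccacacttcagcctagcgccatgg
Irg1, chr14:103046762-103047061, plus strand: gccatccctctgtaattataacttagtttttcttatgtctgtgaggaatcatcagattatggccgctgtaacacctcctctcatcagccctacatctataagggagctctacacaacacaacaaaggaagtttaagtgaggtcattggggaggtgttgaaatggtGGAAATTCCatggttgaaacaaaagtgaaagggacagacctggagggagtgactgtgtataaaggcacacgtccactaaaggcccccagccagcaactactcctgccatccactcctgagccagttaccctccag
Cxcl10, chr5:92348840-92349139, minus strand: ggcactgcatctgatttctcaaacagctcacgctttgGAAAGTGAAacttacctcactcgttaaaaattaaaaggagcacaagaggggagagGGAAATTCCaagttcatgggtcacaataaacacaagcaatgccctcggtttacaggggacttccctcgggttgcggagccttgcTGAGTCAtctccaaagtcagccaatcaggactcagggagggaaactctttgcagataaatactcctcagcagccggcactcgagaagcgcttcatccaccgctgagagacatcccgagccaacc
Hmgcs1, chr13:119690101-119690400, plus strand: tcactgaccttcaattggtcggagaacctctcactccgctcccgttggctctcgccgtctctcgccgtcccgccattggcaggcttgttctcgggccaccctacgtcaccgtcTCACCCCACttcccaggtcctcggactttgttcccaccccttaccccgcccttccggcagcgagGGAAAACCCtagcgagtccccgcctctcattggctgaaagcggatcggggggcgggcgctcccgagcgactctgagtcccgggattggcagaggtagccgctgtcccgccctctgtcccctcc
Cxcl2 held 2 NF-kB matches, beginning 96 and 77 bases before the start, and Irg1 held 1, at 85. Cxcl10 held an interferon match at 213, an NF-kB match at 158 and an AP-1 match at 74. In Csf2 the interferon match began 199 bases before the start and the NF-kB match 24 bases after it. Hmgcs1, a gene that fell, held a sterol match at 137 and an NF-kB match at 73. Of the windows not shown, those of Ccl20, Neurl3 and Saa3 held an NF-kB match, and that of Saa3 an interferon and a sterol match as well. Some other genes that rose held neither an NF-kB nor an interferon match. The windows of Ch25h and Serpinb2 held none of the motifs marked by capitals, and that of Sprr2e held only an AP-1 match. A window of Dhrs3, a gene that fell, held an interferon match. Of 5 cholesterol genes with a window only Hmgcs1 held the sterol motif, and Insig1, Idi1, Lss and Hsd17b7 held none of the motifs marked by capitals.

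Over all 32851 windows of the table the NF-kB motif was present in 5.82%, the interferon motif in 8.56%, the STAT motif in 8.3%, the sterol motif in 1.24%, the CCAAT box in 37.4% and the AP-1 motif in 5.2%. Of the 248 genes at least 2-fold higher 162 had windows (65.3%), and of their 192 windows 41 held the NF-kB motif (21.4%) and 71 the interferon motif (37.0%). Since under 80% of the class had a window, a check of the class by motif is void and these shares describe the windows held. A match is a run of letters and shows no binding.

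Among genes of the TNF receptor complex, 6 of 29 measured rose and none fell. Tnfaip3, which encodes the ubiquitin-editing brake A20, had 69 normalised RPM in medium and 386 with TNF under Sirt6 siRNA, and 102 and 406 under control siRNA. It rose 5.59-fold (log2 2.48, interval 2.41 to 2.56), with both TNF libraries above both medium libraries. Birc3, an inhibitor of apoptosis with ubiquitin ligase activity, rose 4.15-fold, from 9.23 to 38.6. Its relative Birc2 rose 1.54-fold, from 23 to 35.5. The A20-binding protein genes Tnip3 and Tnip1 rose 2.63-fold and 2.43-fold, and the adaptor gene Tank rose 1.36-fold, a call lost with GC centring. The list's median log2 ratio was 0.17, and its other 23 members did not pass.

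The NF-kB and IkB genes rose more widely, in 10 of 12 measured members, with a median log2 ratio of 0.82 and none that fell. The inhibitor genes Nfkbie and Nfkbia went from 16.6 to 85 and from 39.95 to 149 normalised RPM, or 5.09-fold and 3.73-fold higher. The subunit genes Nfkb2 and Relb of the non-canonical branch rose 2.62-fold and 2.28-fold. Smaller rises were those of Nfkbib (1.74-fold), the kinase gene Map3k14 (1.67-fold), Rel (1.72-fold) and Rela, the p65 subunit gene, which went from 124 to 182 (1.47-fold, log2 0.56, interval 0.49 to 0.63).

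Of 17 measured chemokines 12 rose and 2 fell. The neutrophil chemokine Cxcl2 went from 0.54 to 12.2 normalised RPM under Sirt6 siRNA and from 0.441 to 11.9 under control siRNA, and Cxcl1 from 0.416 to 5.72 and from 0.839 to 5.61. Both were low in medium and higher in both TNF libraries, by 19.4-fold and 11.4-fold with Sirt6 silenced. Ccl2, which attracts monocytes, gave the largest gain of any named gene in the library, from 218 to 1641 (7.53-fold, log2 2.91, interval 2.87 to 2.95). Cxcl5 rose 1.61-fold from 174 to 281, and Ccl9 rose 1.6-fold. On the other side Cxcl12, a homeostatic chemokine for cells with Cxcr4, fell 1.62-fold, from 70.7 to 43.6. Cxcl14 fell 1.41-fold, from 3.62 to 2.53, with an interval that barely left out no change (-1.03 to -0.01) and a call lost with GC centring.

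Interleukin, colony-stimulating factor and receptor genes moved both ways, with 14 of 28 measured higher and 5 lower. Csf1, the macrophage growth factor gene, went from 601 to 1271 normalised RPM, and the cytokine gene Lif from 45.5 to 161 (3.54-fold). Receptor genes that rose were Il15ra, the interleukin-15 receptor alpha chain (7.55-fold, from 0.54 to 4.69), Il1rl1, the interleukin-33 receptor (3.17-fold), Il1rap (1.95-fold), Il4ra (1.71-fold), Il10rb (1.47-fold) and Ifngr1 (1.47-fold). Those that fell were the receptor genes Lifr (1.53-fold), Il1r1 (1.54-fold) and Il22ra1, an epithelial receptor for interleukin-22 (1.38-fold, from 88.4 to 64.2), as did Il11ra1, which shares 46.3% of its sequence with other genes and lost its call with GC centring.

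Acute phase, adhesion and TNF family genes followed. Saa3, a serum amyloid gene, went from 5.28 to 79.6 normalised RPM, Lcn2, which binds bacterial siderophores, from 5.53 to 19.4, and the pentraxin gene Ptx3 from 40.5 to 123. They were 3 of 9 acute phase and complement genes that rose among 14 measured, where 1 fell. Vcam1, the ligand of leukocyte integrins, reached 1021 from 180.5 under Sirt6 siRNA and 1082 from 201 under control siRNA, so that all TNF values lay above all medium values. Icam1 rose 4.11-fold, the P-selectin gene Selp 3.03-fold and the checkpoint ligand gene Cd274 2.18-fold, among 9 of 19 adhesion genes that rose, and 3 fell, Podxl, Cd276 and, until GC centring, Thy1. In the TNF superfamily 5 of 17 rose and 4 fell. The ligand gene Tnfsf18 rose 4.23-fold from 0.915 to 4.17, the death receptor gene Fas rose 2.39-fold and the herpesvirus entry mediator gene Tnfrsf14 rose 2.01-fold. Tnfsf12 fell 1.79-fold and Tnfsf13 2.16-fold, but these neighbours share 46.8% and 57.3% of their sequence with other genes.

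Interferon-inducible GTPases, which coat and disrupt pathogen vacuoles, were the group with the highest median. All 19 measured rose, 18 of them at least 2-fold, with a median log2 ratio of 1.99 under Sirt6 siRNA and 1.71 under control siRNA. Gbp4 went from 12.1 to 98 normalised RPM with Sirt6 silenced and from 15.4 to 93.4 with control siRNA. Gbp2 went from 29.98 to 224 and from 41.5 to 227. In both genes the 2 TNF libraries were alike and the medium library with Sirt6 silenced was the lowest of the 4. Gbp10 rose 6.86-fold and Gbp11 7.78-fold, while the smallest rise was that of Irgm1, a regulator of the family, at 1.99-fold. Members of this cluster resemble one another, and Gbp11 shares 19.2% of its sequence with other genes. For Gbp10 shared sequence could not be measured.

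Of 56 measured interferon-stimulated effectors 52 rose, 40 of them at least 2-fold, and none fell (median log2 1.29). Parp14, an ADP-ribosyltransferase gene, went from 47.5 to 268 normalised RPM, Oas3, which makes the activator of an antiviral nuclease, from 34.1 to 160.1, and Trim30a from 20.6 to 97.4. Ifit3, a binder of foreign RNA ends, rose 7.5-fold, though it shares 51.2% of its sequence with other genes. Moderate rises were those of the exonuclease gene Isg20 (1.99-fold), the antibody receptor gene Trim21 (1.99-fold), Oas1b (1.96-fold) and Slfn8 (1.89-fold). The 4 members that did not pass, singled out after their values were seen, were Ifi30, Ifi27, Ifi27l2a and Ifitm2, at log2 -0.29, -0.08, -0.07 and -0.06.

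Regulators of the interferon response moved less. Of 27 measured interferon regulatory factor, JAK-STAT and SOCS genes 13 rose and 1 fell. Usp18, which restrains interferon receptor signalling, rose 4-fold from 34.5 to 138 normalised RPM, and Irf7, a driver of interferon genes, rose 2.44-fold from 54.1 to 132. Irf1 rose 1.92-fold, Jak2 1.81-fold, Stat2 1.79-fold and Irf5 1.76-fold. The 2 inhibitors of JAK kinases parted. Socs1 went up from 1.62 to 5.62 (log2 1.74, interval 1.26 to 2.35), and Socs3 went down from 41.4 to 21.3 (log2 -0.96, interval -1.12 to -0.80). Under control siRNA Socs1 went from 2.91 to 5.39 and Socs3 from 34.1 to 21.5, the same directions.

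Sensors and antigen presentation rose with them. Of 38 measured sensors of nucleic acids and microbial patterns 25 rose and 1 fell. Pglyrp3, a peptidoglycan recognition protein gene, went from 3.37 to 43.1 normalised RPM, the lipopeptide receptor gene Tlr2 from 5.57 to 24.9 and the muramyl dipeptide sensor gene Nod2 from 5.4 to 20.6. Their kinase Ripk2 and adaptor Myd88 rose 1.72-fold and 1.59-fold. Tlr5, the flagellin receptor gene, fell 1.61-fold, from 4.95 to 3.05, and in control siRNA libraries it stood at 3.49 and 3.63. In the MHC class I list 12 of 29 rose and none fell. The immunoproteasome subunit gene Psmb10 rose 2.8-fold, and the peptide transporter gene Tap2 2.08-fold. The peptide-loading genes Tapbpl and Tapbp rose 2.2-fold and 1.91-fold, the trimming peptidase gene Erap1 1.54-fold, and the proteasome activator genes Psme1 and Psme2 1.5-fold and 1.6-fold.

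Cell death genes moved less. Of 30 measured apoptosis, pyroptosis and necroptosis genes 6 rose and 2 fell. The rises included the inflammatory caspase gene Casp4 (2.68-fold, from 19.4 to 52.3 normalised RPM), its substrate Gsdmd, which forms membrane pores (2.37-fold), the apoptosis inhibitor gene Cflar (2.05-fold) and Mlkl, the necroptosis effector (1.66-fold). Bcl2 and Casp9 fell 1.36-fold and 1.35-fold, with the call of Casp9 lost on GC centring. Among 32 measured p53 targets 9 rose and 1 fell, with Plk2 going from 372 to 642 and Gadd45a from 10.4 to 20.7, while Sesn1 fell 1.86-fold. Of 26 AP-1, early growth response and KLF factors 8 rose and 1 fell. Junb rose 1.8-fold, Myc 1.82-fold, Nr4a2 1.93-fold and Maff 1.72-fold, and Fosl1 rose 2.67-fold but shares 52.6% of its sequence with other genes. Fos fell 1.64-fold, from 21.7 to 13.2. Factors of cytokine mRNA turnover rose in 4 of 14, among them Zc3h12a, the Regnase-1 gene (1.58-fold), and Arid5a, its counterpart that stabilises such mRNA (2-fold).

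Extracellular proteolysis genes split. Of 31 matrix protease, ADAM and inhibitor genes 7 rose and 9 fell. Rises were those of the stromelysin genes Mmp10 (1.5 to 13.9 normalised RPM) and Mmp3 (15.9 to 55.7), the collagenase gene Mmp13 (21.1 to 96.7), Adamts9 (5.24-fold) and the inhibitor gene Timp1 (1.83-fold). Falls were those of the membrane-anchored Mmp14 (1.41-fold), Mmp15 (1.68-fold) and Mmp17 (2.04-fold), of Mmp11 (1.82-fold) and of the inhibitor gene Timp3 (1.38-fold, from 1938 to 1409). In the plasminogen and coagulation list 6 of 22 rose and none fell. The tissue factor gene F3 rose 1.8-fold, Procr 1.56-fold and the urokinase receptor gene Plaur 1.37-fold.

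Growth factor genes also moved in parts. Of 17 measured EGF family and ErbB genes 6 rose and 2 fell. The ligand genes Ereg, Areg and Hbegf rose 2.94-fold, 2.41-fold and 1.87-fold, with Ereg at 111 normalised RPM in medium and 325 with TNF. The receptor inhibitor genes Errfi1 and Lrig1 rose 2.69-fold and 1.81-fold. The receptor gene Erbb3 fell 3.12-fold, from 6.19 to 1.92, and Nrg2, a ligand gene of that receptor family, fell 2.45-fold. Of 31 Hippo and YAP target genes 7 rose and 1 fell, with Ctgf going from 198 to 371 and Cyr61 from 319 to 477. Among 33 FGF, PDGF and VEGF genes 7 rose and 9 fell. Angptl4, a lipoprotein lipase inhibitor, rose 5.28-fold, Pdgfb 3.6-fold and Fgf7 1.71-fold, whereas Fgf18 fell 2.09-fold, Kitl 1.9-fold and Figf, a lymphatic growth factor gene, 1.93-fold. In the IGF and insulin list 2 of 19 rose and 4 fell. Igfbp5 fell 6.38-fold, from 5.28 to 0.75, the furthest fall of the 12 firmest, and Igfbp6 fell 2.07-fold. Igfbp3 and Igfbp7 rose 1.73-fold and 1.44-fold.

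Enzymes of small mediators were among the strongest single changes. Of 16 measured arginine and polyamine genes 4 rose and none fell, of 17 tryptophan, NAD and BH4 genes 4 rose and 2 fell, and of 36 superoxide, peroxide and antioxidant genes 3 rose and 3 fell. Of 17 prostaglandin genes 2 rose and 4 fell, and of 9 oxysterol and LXR genes 3 rose and 2 fell. Besides Nos2, the arginine transporter gene Slc7a2 rose 4.73-fold, from 14.9 to 70.7 normalised RPM, and Gch1, which makes the cofactor of nitric oxide synthases, rose 2.93-fold. Ptgs2, the inducible cyclooxygenase, went from 283 to 779 (2.75-fold), while its constitutive relative Ptgs1 fell 1.38-fold, from 243 to 176. Under control siRNA Ptgs2 went from 275 to 629 and Ptgs1 from 237 to 178, the same directions. Sod2, the mitochondrial superoxide dismutase, rose 3.2-fold. Nampt, the rate-limiting enzyme of NAD salvage, rose 1.83-fold, from 35.6 to 65.2. Ch25h, which makes 25-hydroxycholesterol, went from 6.65 to 77.8 under Sirt6 siRNA and from 7.77 to 84.5 under control siRNA (11.5-fold with Sirt6 silenced). The cholesterol exporter gene Abca1 rose 1.66-fold.

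Cholesterol synthesis fell as a group. Cells make cholesterol from acetyl-CoA through mevalonate and squalene, and SREBP factors drive these enzymes when sterols are scarce, while Insig proteins and oxysterols hold SREBP back. Of 30 measured genes 23 fell, 8 of them at least 2-fold, and none rose. The list's median log2 ratio was -0.77 under Sirt6 siRNA and -0.65 under control siRNA, against -0.01 for all genes. With ratios centred on GC content 21 fell and 1 rose, Npc2, a lysosomal cholesterol carrier gene named after its value was seen.

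Hmgcs1, which makes the precursor of mevalonate, stood at 157 normalised RPM in medium and 37.6 with TNF when Sirt6 was silenced, and at 111 and 34.2 with control siRNA. The 2 medium libraries were higher than both TNF libraries, and the fall was 4.18-fold (log2 -2.06, interval -2.18 to -1.96). Insig1, a sterol sensor gene that is itself an SREBP target, went from 136 to 33.8. Sqle, the squalene epoxidase gene, went from 98.7 to 32. For both the control siRNA libraries showed the same order, with 113 to 36.7 and 72.4 to 25.4. Falls under 2-fold were those of the lanosterol synthase gene Lss (1.8-fold), Hsd17b7 (1.87-fold) and Idi1 (1.83-fold).

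Fatty acid genes followed in part. Of 32 measured 12 fell and 1 rose (median log2 -0.25). Desaturase genes were among those that fell. Scd2 went from 1086 to 439.6 normalised RPM (2.47-fold, log2 -1.30, interval -1.34 to -1.27), Scd1 fell 1.52-fold, Scd3 2.08-fold, Fads2 1.43-fold and Fads1 1.4-fold. Acsl3, which activates fatty acids, fell 1.65-fold, and its relative Acsl5 rose 1.31-fold, a call lost with library totals and with GC centring. The fatty acid synthase gene Fasn, singled out after its value was seen, did not pass at log2 -0.27.

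**Figure D3:**
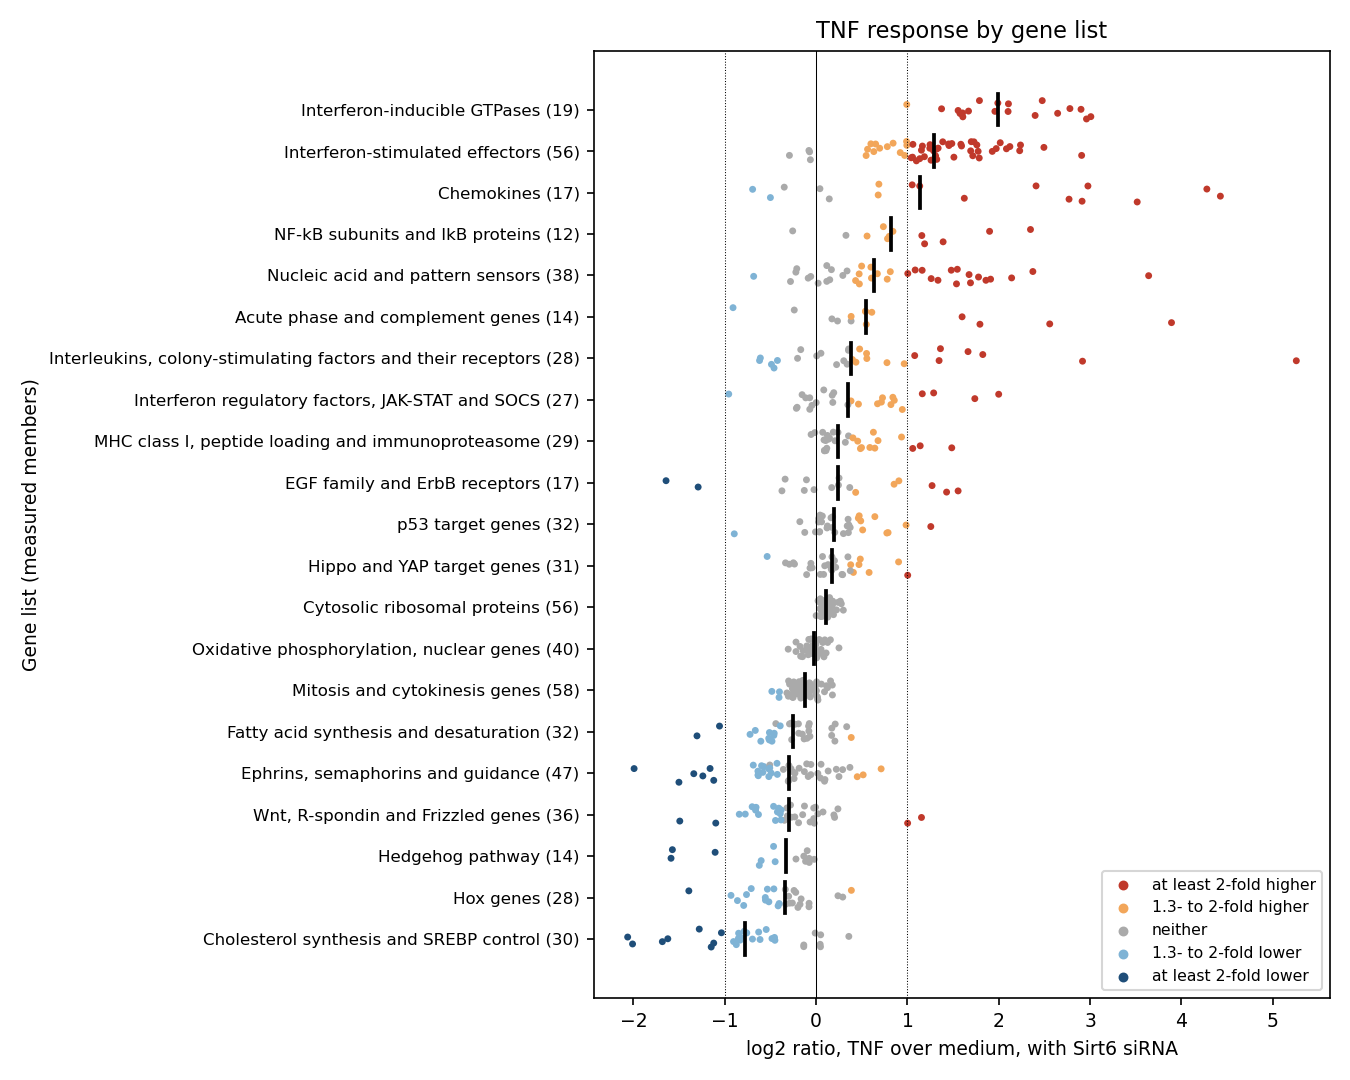
Each point is 1 measured gene of 21 lists, placed by its log2 ratio of TNF to medium with Sirt6 siRNA, with colours for the 4 classes and a black bar for the list's median. The interferon-inducible GTPases have the highest median, at 1.99, and cholesterol synthesis has the lowest, at -0.77.

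In the Hedgehog pathway, which signals through the receptor Patched and the transducer Smoothened to Gli factors, 7 of 14 measured fell and none rose, with all 14 ratios below 0. The co-receptor gene Cdon went from 276 to 92.5 normalised RPM under Sirt6 siRNA and from 228 to 88 under control siRNA. That is a fall of 2.98-fold with Sirt6 silenced (log2 -1.57, interval -1.65 to -1.50), with both TNF libraries below both medium libraries. Gli2, a transcription factor of the pathway, went from 5.82 to 1.87, and Gas1, a further co-receptor, from 140.4 to 65.2. Smo and Disp1 fell 1.38-fold and 1.36-fold but did not pass once ratios were centred on GC content, which left 5 of 14 lower.

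Of 36 measured Wnt, R-spondin and Frizzled genes 15 fell and 2 rose (median log2 -0.30), and 9 fell with ratios centred on GC content. Receptor genes were among those that fell. Lgr4, a receptor of R-spondins, went from 48.8 to 22.7 normalised RPM (2.14-fold), Fzd2 fell 1.79-fold and Fzd4 1.71-fold. The ligand genes moved apart. Rspo1 went down from 4.78 to 1.64, while Rspo3 and Wnt10a rose 2-fold and 2.22-fold. Rspo1 stood at 4.28 and 3.47 in the control siRNA libraries, so the library with Sirt6 siRNA and TNF was the lowest of the 4. Its difference of log2 ratios, Sirt6 siRNA minus control siRNA, was -1.20 (interval -1.94 to -0.52). In the Notch pathway 2 of 22 rose, the ligand gene Jag1 (2.06-fold) and the transcription factor gene Rbpj (1.63-fold). There 5 fell, among them the glycosyltransferase gene Lfng (1.67-fold) and the ligand gene Dll1 (1.9-fold), but 2 once centred on GC content.

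Ephrin, semaphorin and guidance genes, which steer migrating cells and axons, fell in 19 of 47 measured and rose in 3 (median log2 -0.30). Plxna4, a semaphorin receptor, went from 75 to 26.4 normalised RPM, Ephb6 from 25.2 to 9.89 and Sema4g from 7.73 to 1.87. Efnb1 fell 1.55-fold, Sema3a 1.51-fold and Ephb3 1.55-fold. Epha2, read at 691 and 944, rose 1.37-fold, and Plxnd1 1.64-fold. Of 28 measured Hox genes, which set position along the body axis, 13 fell and 1 rose. Hoxd11 fell 2.63-fold, Hoxd10 1.91-fold, Hoxa10 1.7-fold and Hoxb13 1.73-fold. The rise was that of Hoxb4, 1.31-fold from 7.4 to 9.7, whose control siRNA libraries stood at 9.98 and 7.85 and whose call was lost with library totals. With ratios centred on GC content 18 guidance genes and 11 Hox genes fell.

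Structural genes moved both ways. Of 21 collagen genes 5 fell and 1 rose, with Col6a2 going from 156 to 87.7 normalised RPM and Col3a1 from 699.8 to 455. Of 39 matrix glycoproteins and proteoglycans 5 rose and 7 fell. The cell surface proteoglycan gene Sdc4 went from 483 to 837 and the thrombospondin gene Thbs1 from 443 to 679.9. Of 21 integrins and laminins 4 rose and 3 fell, with the collagen receptor subunit gene Itga2 rising from 2 to 11.8. Among 33 keratin and junction genes 4 rose and 8 fell. Desmosome genes moved both ways. Dsp went from 62.5 to 31.6 and Jup from 235 to 127, while Dsg2 rose from 20.4 to 27.4 and Pkp1 from 4.95 to 6.61, calls of rises that were lost with library totals. The P-cadherin gene Cdh3 fell 1.75-fold, Krt7 1.59-fold and the claudin gene Cldn15 2.04-fold, while the cadherin gene Cdh11 rose 1.47-fold. The mesothelial and fibroblast marker sums given above were lower with TNF in the same comparison, and their part in these values was not tested.

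In the TGF-beta and BMP list 9 of 45 rose and 8 fell. Inhba, the activin A subunit gene, rose 2.06-fold, the ubiquitin ligase gene Smurf1 1.56-fold and Tgfb1 1.5-fold. Its relative Tgfb3 fell 1.77-fold, from 115 to 65.3 normalised RPM, and the inhibitory Smad6 and the BMP transducer Smad9 fell 1.74-fold and 2.03-fold. Among retinoid genes 5 of 14 fell and 1 rose. Dhrs3, which reduces retinaldehyde, went from 12.9 to 2.86 (4.41-fold), the retinoic acid synthesis gene Aldh1a2 fell 1.54-fold, and Rdh10, which makes retinaldehyde, rose 1.73-fold.

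Several housekeeping lists had few calls or none. None of 40 nuclear oxidative phosphorylation genes and none of 56 cytosolic ribosomal protein genes passed, against the background of 7.86% and 10.2% over all genes. These lists were deeply read, with medians of 1622 and 7803 reads, and falls were rarer at such depths. Falls of 1.3- to 2-fold made up 4.65% of genes at 1000 to 3000 reads and 3.44% above 3000. The ribosomal ratios were small and lay on one side, all 56 above 0, with a median log2 of 0.11, or 0.06 when libraries were scaled by their totals. Of 58 mitosis and cytokinesis genes 3 fell, Cdc25b, Kif14 and Cdc25c, and none rose (median -0.13). Of 63 replication and G1/S genes 2 rose and 5 fell, among the latter the CDK inhibitor genes Cdkn2c (1.66-fold), Cdkn2d (1.63-fold) and Cdkn1b (1.4-fold). Of 6 measured sirtuins none passed, with a median of -0.06. Of 44 DNA double-strand break repair genes 1 rose, the checkpoint kinase gene Atr (1.38-fold), and 3 fell, Chek2 (1.5-fold), H2afx (1.43-fold) and Xrcc3 (1.34-fold). The calls of Atr, H2afx and Xrcc3 were lost with ratios centred on GC content.

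Depth made changes under 2-fold measurable in well-read genes. The firmest rise of that kind was Irgm1, at 149 normalised RPM in medium and 296 with TNF (log2 0.99, interval 0.93 to 1.05). Control siRNA gave 187 and 324, and both TNF libraries lay above both medium libraries. The others were Abcb1b, a drug efflux pump (log2 0.97), Tapbp (0.94), the interleukin-1 co-receptor Il1rap (0.96), Rab8b, a vesicle GTPase (0.94), Isg20 (0.99), Ctgf (0.90), the phospholipid scramblase gene Plscr1 (0.94), Trim56 (0.91) and Irf1 (0.94). Apart from Abcb1b, Rab8b and Ctgf, these act in interferon, interleukin-1 or antigen presentation pathways.

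The firmest falls under 2-fold came from genes of the cytoskeleton, chromatin and membranes, among others. Add3, a membrane skeleton gene, stood at 86.2 normalised RPM in medium and 43.7 with TNF (log2 -0.98, interval -1.09 to -0.87), and its log2 ratio under control siRNA was -0.90. Smarca2, an ATPase of the SWI/SNF chromatin remodeller, went from 127 to 66.1 (log2 -0.95, interval -1.04 to -0.86). Dsp, the desmoplakin gene, had lower levels with Sirt6 silenced than with control siRNA in both treatments, 62.5 to 31.6 against 100.1 to 50.7, and like log2 ratios (-0.98 and -0.98). The rest were Tnrc18 (log2 -0.95), Map1a, a microtubule-associated protein gene (-0.93), Plekhg5 (-0.96), the sodium pump subunit gene Atp1b1 (-0.92), the thyroid hormone receptor gene Thra (1.99-fold lower), Nacc2 (-0.92) and the myelin gene Pmp22 (-0.99). All 20 genes were on the same side of 0 with control siRNA and passed there too.

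**Figure D4:**
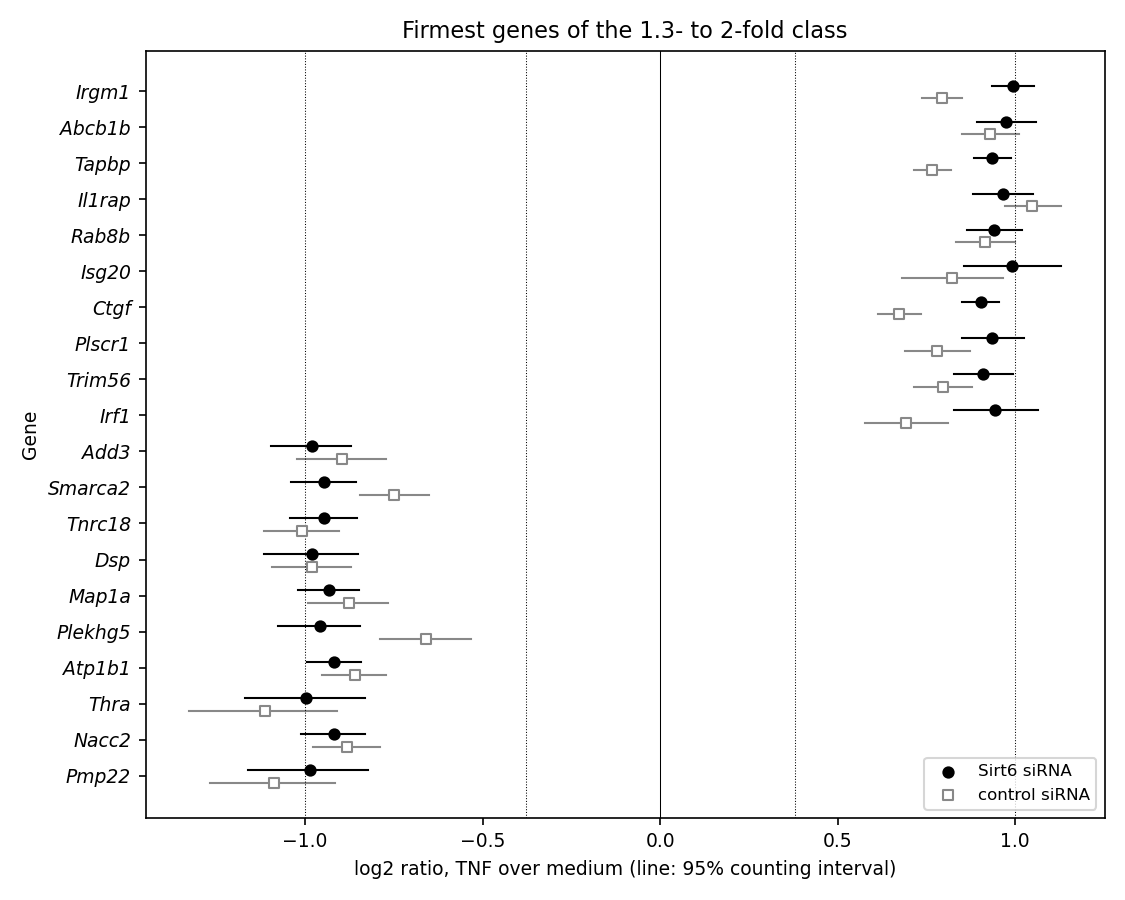
Log2 ratio of TNF to medium with its 95% counting interval, for the 10 firmest rises and 10 firmest falls of 1.3- to 2-fold. Filled circles are the Sirt6 siRNA pair and open squares the control siRNA pair, and no interval of the 40 reaches 0.

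The genes that gained or lost most RPM, a measure of the share of the library and not of level per length, were partly others. The largest gains were those of Ccl2, Vcam1, Csf1 and Rnf213, an interferon-linked ubiquitin ligase (437 to 1087 normalised RPM). Ptgs2 and the mitochondrial gene mt-Co1 were also among the 8 largest. The latter did not pass at log2 0.15 (3909 to 4352) and shares 51.1% of its sequence with other genes. The largest loss was that of Lars2, a mitochondrial leucine tRNA synthetase gene and the gene with most reads, from 6434 to 4413 (log2 -0.54). Its mean of 124473 reads exceeded the 93451 of mt-Co1, and whether all of them came from its mRNA was not tested. Scd2 came next, then Col1a1 (3431 to 2877, log2 -0.25), Timp3, Fbln2, the mesothelial and urothelial gene Upk3b (log2 -0.40, a call lost with GC centring), Hspg2 and Col3a1. Of these 8 losses Col1a1, Fbln2 and Hspg2 were below the 1.3-fold threshold.

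Set beside control siRNA, most of the larger changes had their counterpart. The 2 pairs share no library. With control siRNA 1051 of the same 13519 genes rose (7.77%) and 1164 fell (8.61%). Of the 1063 genes that rose with Sirt6 siRNA 664 also rose with control siRNA, which is 62.5% of the former and 63.2% of the latter. Of the 1376 that fell 719 fell there too, 52.3% and 61.8%. The share that passed in both was larger among the larger changes. Of the 248 genes at least 2-fold higher 246 had a ratio above 0 with control siRNA and 244 passed, and of the 104 at least 2-fold lower 103 had one below 0 and 93 passed. Of the 815 moderate rises 420 passed and 4 passed in the opposite direction, and of the 1272 moderate falls 626 passed and 8 were opposite. Many that did not pass still had a ratio on the same side of 0 with control siRNA. That side was shared by 753 of the 815 moderate rises (92.4%) and 1144 of the 1272 moderate falls (89.9%).

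An additive model of siRNA and TNF over the 4 libraries tests the response common to both siRNAs, with 1 residual degree of freedom. By edgeR's quasi-likelihood test with Benjamini-Hochberg adjustment 2177 genes were higher (16.1%) and 2248 lower (16.6%) with the adjusted p held to 0.05. The DESeq2 Wald test gave 995 and 758. The spread in that model is drawn from how far the 2 responses differ and pooled over genes (common biological coefficient of variation 0.0387), and not from replicates. Of the 248 genes at least 2-fold higher 246 passed edgeR's test in the same direction, as did 102 of the 104 at least 2-fold lower, 681 of 815 moderate rises and 963 of 1272 moderate falls. The model holds the same Sirt6 siRNA libraries that placed these genes in their classes. Such overlap is therefore partly built in and is no independent check.

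Differences between the 2 responses were counted where they passed 2-fold. The log2 ratio with Sirt6 siRNA was at least 1 above that with control siRNA, with an interval that left out 0, in 24 genes (0.178%) and at least 1 below it in 29 (0.215%). They were thinly read, the 24 with a median of 70.2 reads, and in 19 and 23 of them the 2 ratios lay on opposite sides of 0. These genes were picked from 13519, and their intervals were not adjusted for that choice. How many would pass by counting error alone was not tested, so an interval that leaves out 0 is no test of a single gene. Il15ra, with 0.54 to 4.69 normalised RPM with Sirt6 silenced and 1.5 to 3.95 with control siRNA, differed by 1.57 (interval 0.68 to 2.69), and the library with Sirt6 siRNA in medium was the lowest. Rnf135, a ubiquitin ligase gene of the RIG-I pathway, went from 2.08 to 5.43 and from 5.12 to 4.17, a difference of 1.64 (interval 1.04 to 2.30). Cftr, the chloride channel gene, went from 4.28 to 7.4 and from 8.61 to 6.89, a difference of 1.09 (interval 0.63 to 1.59). Zfp788, Gpatch1 and Shf differed by 1.35 (interval 0.69 to 2.08), 1.06 (interval 0.66 to 1.48) and 1.40 (interval 0.64 to 2.24). Nos2, one of the firmest rises, was also among the 24, with a difference of 1.05 whose interval barely left out 0 (0.005 to 2.46).

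Smaller differences with an interval that left out 0 were not counted, though well-read genes named here show them. Tnfaip3 differed by 0.48 (interval 0.38 to 0.59), Cxcl10 by 0.43 (interval 0.29 to 0.57), Nfkbie by 0.56 (interval 0.35 to 0.78) and Hmgcs1 by -0.38 (interval -0.54 to -0.21). These genes moved the same way with both siRNAs, and further with Sirt6 siRNA. They are examples, and without a count over all genes they show no general direction. In Tnfaip3 the siRNAs differed more in medium (69 against 102 normalised RPM with control siRNA) than with TNF (386 against 406). Hmgcs1 was alike in this, with 157 against 111 in medium and 37.6 against 34.2 with TNF. Cxcl10 differed more with TNF, at 319 against 257.

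Among the genes at least 1 below stood Sv2c, a synaptic vesicle protein gene, with 4.07 to 0.937 normalised RPM with Sirt6 silenced and 2.03 to 1.66 with control siRNA. Its difference was -1.74 (interval -2.75 to -0.86), and the medium library with Sirt6 siRNA was the highest of the 4. Car9, a carbonic anhydrase induced by hypoxia, went from 4.16 to 1.73 and from 2.78 to 3.36, a difference of -1.49 (interval -2.26 to -0.79). Dhrs9, a retinol dehydrogenase gene, went from 9.77 to 5.95 and from 10.5 to 13, a difference of -1.02 (interval -1.43 to -0.63). Zmat5, an RNA-binding zinc finger gene, and the pseudogene Rps2-ps9 differed by -1.07 (interval -1.53 to -0.63) and -1.15 (interval -1.72 to -0.61). Kcnh2, one of the firmest falls, differed by -1.25 (interval -2.20 to -0.40). Car9 was in the hypoxia list, of whose 29 measured members 3 rose and 3 fell.

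**Figure D5:**
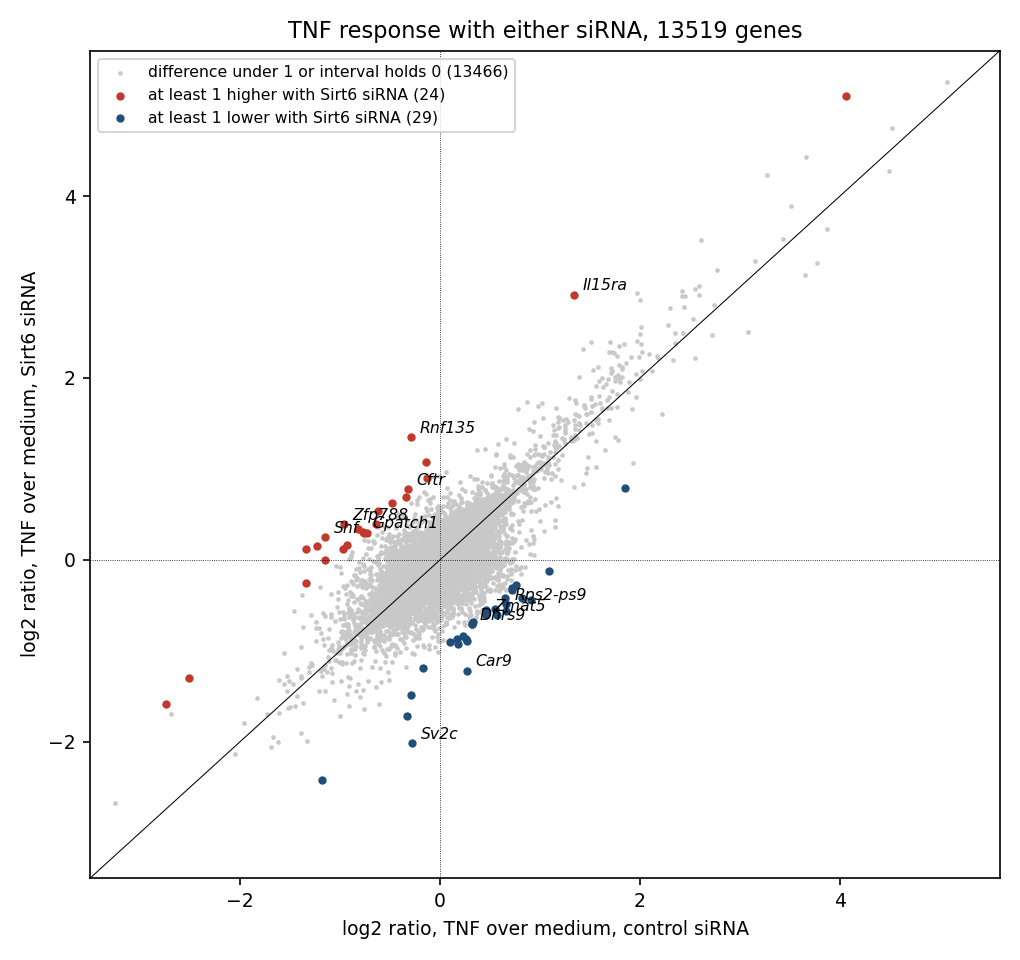
Log2 ratio of TNF to medium with control siRNA on the horizontal axis and with Sirt6 siRNA on the vertical axis, 1 point per gene, with the line of equal response. The 24 red and 29 blue genes differ by at least 1 with an interval that leaves out 0. Points above the line had the higher ratio with Sirt6 siRNA, and both red and blue points lie on either side of 0.

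Genes under the depth minimum were many but uncertain. Of the 6829 with a read 231 were at least 2-fold higher and 260 at least 2-fold lower. Mmp9, a gelatinase gene, had 2 reads in medium and 90 with TNF (interval log2 3.77 to 8.73). Madcam1, the gut homing receptor ligand, had 0 and 38, which is at least 14.3-fold higher against a floor of 3 reads in the library in medium. Rgs16, which ends G protein signals, had a log2 ratio of 3.88, as had Gpr84, a fatty acid receptor gene. Gucy1a3, a nitric oxide receptor subunit gene, went from 20 reads to 0 and was at least 5.92-fold lower against a floor of 3 reads in the library with TNF. C2cd4a, Matk and Ngb went from 19, 16 and 16 reads to 0. Just inside the minimum, 34 genes of 50 to under 51 mean reads had a median log2 ratio of -0.15, and 34 genes of 49 to under 50 just outside had -0.07.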

How the data were processed

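Messenger RNA was sequenced from 4 samples, 1 per group, with oligo-dT beads and NEBNext Ultra reagents, per the labels' protocols. The deposited table gives read counts per gene, per the file headers, and values headed RPKM that the authors deposited, which equal RPM, each count scaled by its library's total alone. The submitters' processing notes name CASAVA, Bowtie 1.0.1 and edgeR without their steps. Which build, annotation and counting tool were used is not given in the sources used here. No strand is marked by this kit as named, so reads of overlapping genes on opposite strands cannot be told apart. Counts alone were used here. Of 29179 identifiers 27928 matched a name table, which also restored 27 symbols stored as dates.

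Library sizes were scaled with edgeR 4.0.16 (TMM, R 4.3.3) over 15274 genes with at least 1 RPM in a library. Ratios carry a prior count of 2, intervals are exact conditional binomial (Clopper-Pearson), and differences of responses have delta-method intervals with 0.5 added to each count. Calculations used Python 3.11.15 and DESeq2 1.42.0 and were tested on simulated counts. No p-value was computed for the pair of libraries.

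The genes, 58 gene lists and rules were chosen with earlier results of these data known. Named by rule were Sirt6, the 12 firmest genes each way at least 2-fold and the 10 firmest each way under 2-fold. Also named were up to 4 genes each way and class per list, the 8 largest gains and losses in RPM, 6 differences each way and 4 genes each way under the minimum. Unnamed gene models were left out, and some genes that the rule names are not reported here. Of 2064 list entries 5 found no gene. Promoters came from RefSeq (GRCm38.p6), and 69.5% of the 13519 genes had one. Shared sequence is the share of 50-base words in a gene's GENCODE vM21 transcripts also present elsewhere, read in either direction, among other genes' transcripts. It could be measured for 407 of 408 genes named by rule, and was over 10% for 62 and over 50% for 8. Not every such gene is flagged where it is named. Examples are Psme2 (28.3%), Idi1 (25.3%), Tapbp (23.2%), Timp3 (21.4%) and Sod2 (21.0%). GC content came from the longest of those transcripts, for 98.1% of genes. The depths were 22422365, 18793708, 23749380 and 21755516 reads, and the floor of 3 reads stood at 0.132, 0.160, 0.125 and 0.141 normalised RPM. Alternatives were other scalings, other read minimums, no prior count, no interval, DESeq2 and, chosen after seeing the data, ratios centred within 20 bins of GC content.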

Additional observations from a re-analysis of the deposited data

Results flagged for a closer look

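Among the genes named by rule, 2 passed in opposite directions with the 2 siRNAs. Zmat5 fell with Sirt6 siRNA (log2 -0.61) and rose with control siRNA (0.46), a difference of -1.07. The pseudogene Rps2-ps9 fell (log2 -0.48) and rose (0.66), a difference of -1.15. Each ratio compares 1 library with 1 library, so the difference between the siRNAs was not tested. They share 23.5% and 19.5% of their sequence with other genes.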

How the results depend on the processing

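Another scaling, no prior count, no interval and GC centring each kept the 4 counts of genes within 1.5 times. Without a read minimum 479 genes were at least 2-fold higher and 364 at least 2-fold lower, and with a minimum of 20 reads 183 were at least 2-fold lower. With libraries scaled by their totals the median ratio of all genes was -0.05 instead of -0.01. In the additive model DESeq2 called 995 genes higher and 758 lower. The counts of genes that differed between the siRNAs stayed within 1.5 times. Over the alternatives 286 list medians stayed in place and 4 moved by more than the median half-width of their members' intervals. Chemokines went to 1.62 and oxysterol and LXR genes to 0.11 with a minimum of 100 reads, from 1.13 and -0.11. Ribosomal proteins went to 0.0593 with library totals, and smooth muscle genes to -0.0440 with GC centring. Of the genes named by rule 28 lost their call with GC centring, 17 with library totals and 3 with DESeq2 size factors, and none changed direction in these settings. Causes were not tested. No paired analysis was possible because each group has 1 library and so no replicate number to pair by, beyond the additive model, which holds siRNA as a term. Depth limits the lower class most, with a median interval of 1.42-fold either side at 50 to 100 reads.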

Other observations

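Of 31 measured metal handling genes 7 rose and 1 fell. The transferrin receptor gene Tfrc went from 133 to 192 normalised RPM and the ferrireductase gene Steap4 from 32.3 to 47.3, while the metallothionein gene Mt2 went from 46.5 to 86.7 and shares 45.8% of its sequence with other genes. Of 30 glycolysis and glucose uptake genes 2 rose, Hk2 (1.75-fold) and Slc2a1 (1.35-fold), and 6 fell, among them the lactate transporter gene Slc16a1 (1.59-fold) and the glucose transporter gene Slc2a8 (2.06-fold). Of 37 lysosomal genes 2 rose and 5 fell, with Tfeb, a driver of lysosomal genes, going from 22.7 to 12.4, and Ctsc, the cathepsin that activates granule proteases, from 19.9 to 31.9. Of 33 autophagy genes 1 rose, Atg14 (1.58-fold), and 3 fell.

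Stress response genes changed in few places. In 37 unfolded protein and integrated stress response genes 3 rose and 2 fell, among the latter Ddit3, the CHOP gene (1.34-fold). In 35 heat shock chaperones 1 rose, the mitochondrial chaperone gene Hspa9 (402 to 524 normalised RPM), whose call was lost with library totals and with GC centring, and 2 fell. Of 18 circadian clock genes 2 fell, Cry2 (1.37-fold) and Per3 (1.45-fold). Of 17 MAP kinase phosphatase and Sprouty genes 3 rose, among them Dusp16 (1.42-fold). In 14 genes of G protein signalling regulators 2 rose, Rgs19 and Rgs20, and 2 fell, Arrb1 and Rgs10, the latter losing its call with DESeq2 size factors and with GC centring. Of 37 hyaluronan and glycosaminoglycan enzymes 2 rose, with the hyaluronan synthase gene Has2 going from 10.7 to 23.8, and 5 fell. Of 30 smooth muscle and contractile genes 1 fell, Myl9 (1.88-fold).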
